A study of Arabidopsis thaliana with 6 samples.

Results

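Transcripts of 3 Arabidopsis thaliana chaperone genes were compared between rosette leaves of line A6 and of wild type. The genes were ROF2 (AT5G48570), HSP23.5 (AT5G51440) and ERDJ3B (AT3G62600), 3 of the 13355 genes that the array measured with a probe set paired with 1 gene, and each had 1 probe set. They were picked by locus, with their A6 minus wild-type differences already known, because they are stress-linked folding factors of 3 compartments. Their differences between the lines are therefore given as a description, without a test.

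The series held 6 arrays, 3 of A6 and 3 of wild type. The labels name the A6 samples only by line and present the plant as lacking normal N6-adenosine methylation of RNA. From knowledge of the study, A6 is 1 line of a mutant of MTA, the methyltransferase that makes this mark in mRNA, kept alive by an MTA transgene under the ABI3 promoter, which is active in embryos and little in mature leaves. No second mutant line was measured, and what is particular to A6 cannot be told apart from low methylation. Plants of both lines were 3 weeks old and grew at 20 °C under 20 h of light and 4 h of dark, with no heat or other stress treatment in the labels, and leaves 3 to 6 were taken. The labels call the replicates biological without saying how many plants each holds, so errors here measure the spread between these samples.

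Chaperones bind unfolded proteins and keep them from clumping, and co-chaperones direct that work. ROF2, also called FKBP65, is a heat-induced FK506-binding co-chaperone of the cytosol and nucleus, known in Arabidopsis as a partner of its relative ROF1 and a modulator of the heat shock factor HSFA2. HSP23.5 is a small heat shock protein of the mitochondrion, and small heat shock proteins hold unfolded clients without using ATP. ERDJ3B is a J-domain co-chaperone in the lumen of the endoplasmic reticulum (ER), known to work with SDF2 and the Hsp70 protein BiP and to be needed for the quality control of the immune receptor EFR.

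Values are the authors' RMA values, taken as log2 and centred so that each probe set has a median of 0 over the 6 arrays. They give differences between arrays and no absolute level, so the genes cannot be ranked by abundance. The centring also places the lowest array of one line and the highest of the other at equal distances from 0 whenever the lines do not overlap. Wild-type replicate 1 stood apart from the other arrays: it had the largest SD over probe sets (0.343, against 0.222 to 0.306 on the others) and the lowest limma array weight (0.326, against 0.690 to 3.19), and the differences of the 3 genes without it are given below their values.

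ROF2 had centred log2 values of 0.54, 0.20 and 0.44 in A6 replicates 1 to 3, against -0.58, -0.20 and -0.45 in wild-type replicates 1 to 3. The lines did not overlap, with a gap of 0.39 between the lowest A6 and the highest wild-type array. The mean was 0.39 ± 0.18 in A6 and -0.41 ± 0.20 in wild type (SD, n = 3 each). The A6 minus wild-type difference was 0.80 log2 units (SE 0.14, 95% interval 0.48 to 1.12), which is 1.74-fold (1.40 to 2.18).

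HSP23.5 had values of 0.37, 0.18 and 0.29 in A6 and of -0.53, -0.18 and -0.48 in wild type, again without overlap. Its mean was 0.28 ± 0.099 in A6 and -0.40 ± 0.19 in wild type (SD, n = 3 each), a difference of 0.68 log2 units (SE 0.12, 95% interval 0.39 to 0.96) or 1.60-fold. The arrays stood in the same order as for ROF2: replicate 1 was highest and replicate 2 lowest within A6, and replicate 2 was highest and replicate 1 lowest within wild type. On both genes the closest pair of arrays from opposite lines was thus the pair numbered 2.

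ERDJ3B had values of 0.94, 0.98 and 0.36 in A6 and of -0.36, -0.48 and -0.63 in wild type. Here A6 replicate 3 was the low array of its line and wild-type replicate 1 the high one, an order unlike that of ROF2 and HSP23.5. The mean was 0.76 ± 0.35 in A6 and -0.49 ± 0.13 in wild type (SD, n = 3 each). The difference was 1.25 log2 units (SE 0.17, 95% interval 0.85 to 1.65), or 2.38-fold (1.80 to 3.14). Without A6 replicate 3 it was 1.45 (SE 0.12).

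**Figure D1:**
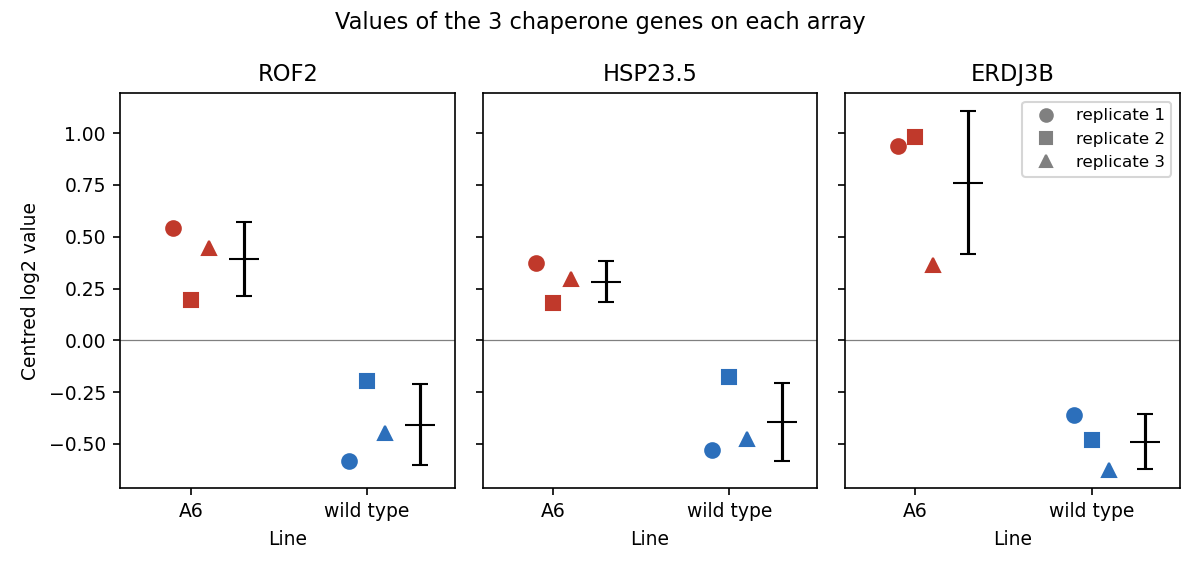
Centred log2 values of ROF2, HSP23.5 and ERDJ3B on the 3 A6 and 3 wild-type arrays, with marker shapes for replicate numbers; black bars give the mean and SD of each line. Every A6 point lies above every wild-type point for each gene, and A6 replicate 3 lies lowest in its line for ERDJ3B but not for the other genes.

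The size of the difference ran from ERDJ3B through ROF2 to HSP23.5. Differences taken array by array put ERDJ3B above ROF2 by 0.45 log2 units (95% interval -0.37 to 1.26) and HSP23.5 below ROF2 by 0.13 (HSP23.5 minus ROF2 -0.13, -0.27 to 0.022). These intervals describe the spread over the arrays and are no test of the order. The pooled SD within lines was 0.26 for ERDJ3B, 0.19 for ROF2 and 0.15 for HSP23.5, beside a median of 0.15 over all 13355 genes. Among those genes, 168 had a difference as large as that of ERDJ3B or larger in the same direction, 366 as large as that of ROF2 and 468 as large as that of HSP23.5. All A6 arrays lay above all wild-type arrays for 12.0% of the 13355 genes. Nothing is read from the 3 of 3 here, because the genes were chosen with this contrast known.

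Signs of RNA quality moved with the lines. The mean 3' minus 5' value of the plant control genes (actin, GAPDH and ubiquitin) was -0.033 to -0.021 in A6 and 0.016 to 0.091 in wild type, without overlap. With it as a covariate the differences were 0.43 for ROF2 (95% interval -0.12 to 0.98), 0.37 for HSP23.5 (-0.14 to 0.87) and 1.52 for ERDJ3B (0.74 to 2.30). As its values do not overlap between the lines, this fit cannot tell its part from that of line. The SE of ROF2 was 0.24 in this fit and 0.14 without the covariate. The 25S ribosomal RNA control was also apart, at 0.51 to 0.83 in A6 and -1.06 to -0.51 in wild type, and its part in these differences was not tested. Without wild-type replicate 1, which had the highest 3' minus 5' value, the differences were 0.72 for ROF2, 0.61 for HSP23.5 and 1.31 for ERDJ3B. In leaves measured as bulk tissue, a change in the share of a cell type and a change of RNA per cell cannot be told apart.

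**Figure D2:**
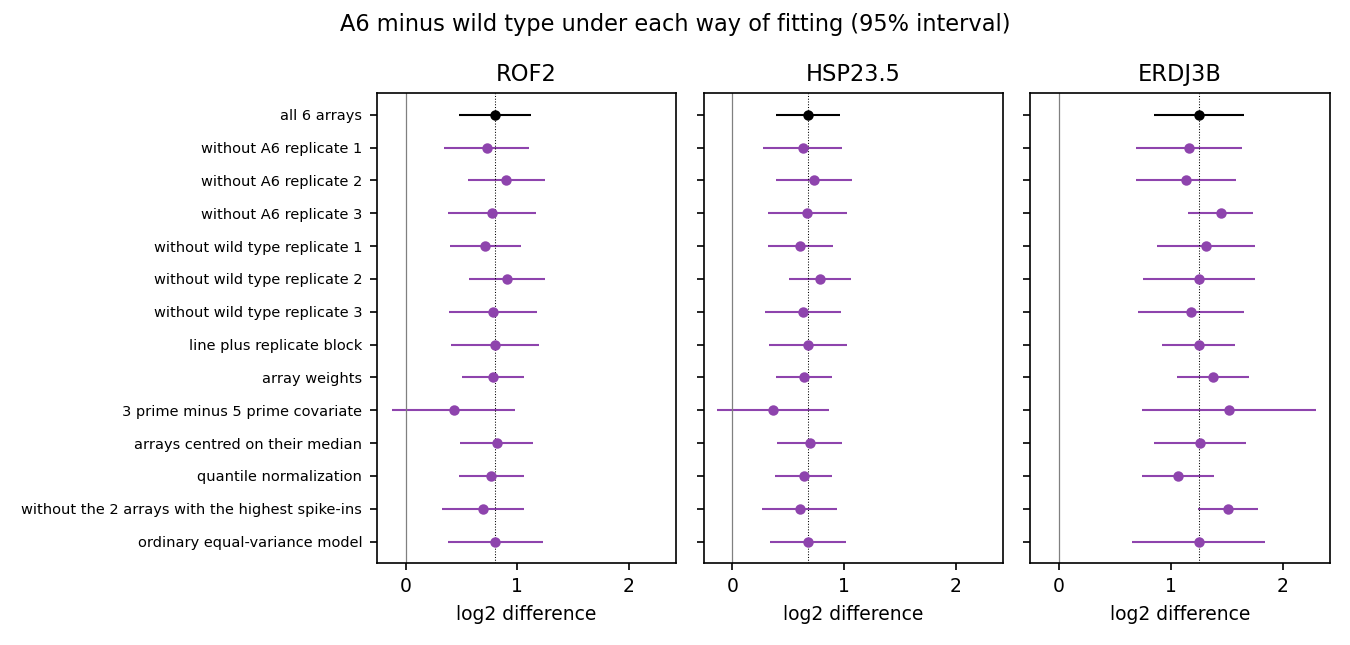
A6 minus wild-type log2 differences of the 3 genes, with 95% intervals, for all 6 arrays (black, dotted line) and under each other way of fitting (purple). All estimates lie above 0, and the intervals of ROF2 and HSP23.5 reach below 0 with the 3' minus 5' covariate. As the lines do not overlap, leaving out or weighting arrays could not bring an estimate below 0.

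The 3 genes were then set beside lists of other folding and stress genes, of which 49 of 167 listed loci had a 1-gene probe set under a name. Adjusted p-values are from limma's moderated test over 22746 probe sets with Benjamini-Hochberg adjustment, at a threshold of 0.05. The lists were chosen with earlier results of these data known, so their shares are given as a description. Of the 49 genes, 8 (16.3%) rose and 4 fell, where 4.32% of all 13355 genes rose and 4.33% fell. Their median difference was 0.089, against -0.027 over all genes, and 32 of 49 had higher values in A6. The count of 12 calls moved when single arrays were left out. It was 2, 4 and 10 without A6 replicates 1 to 3, in that order. Without wild-type replicates 1 to 3 it was 16, 8 and 6. The count over all probe sets moved too, from 2222 to 766, 993 and 1550 without A6 replicates 1 to 3. Without wild-type replicates 1 to 3 that count was 3484, 1103 and 1222. Fewer arrays entered these fits, and the cause of the moves was not tested. The limma fit that held the 3' minus 5' value called 0, with 13 at an unadjusted p under 0.05, against 22 in the fit without it. Over all 22746 probe sets the fit with it called 290, and the fit without it called 2222 (9.77%) in either direction. The share of all genes at an unadjusted p under 0.05 is not given here. Counts at that threshold, here and below, thus have no background beside them.

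**Figure D3:**
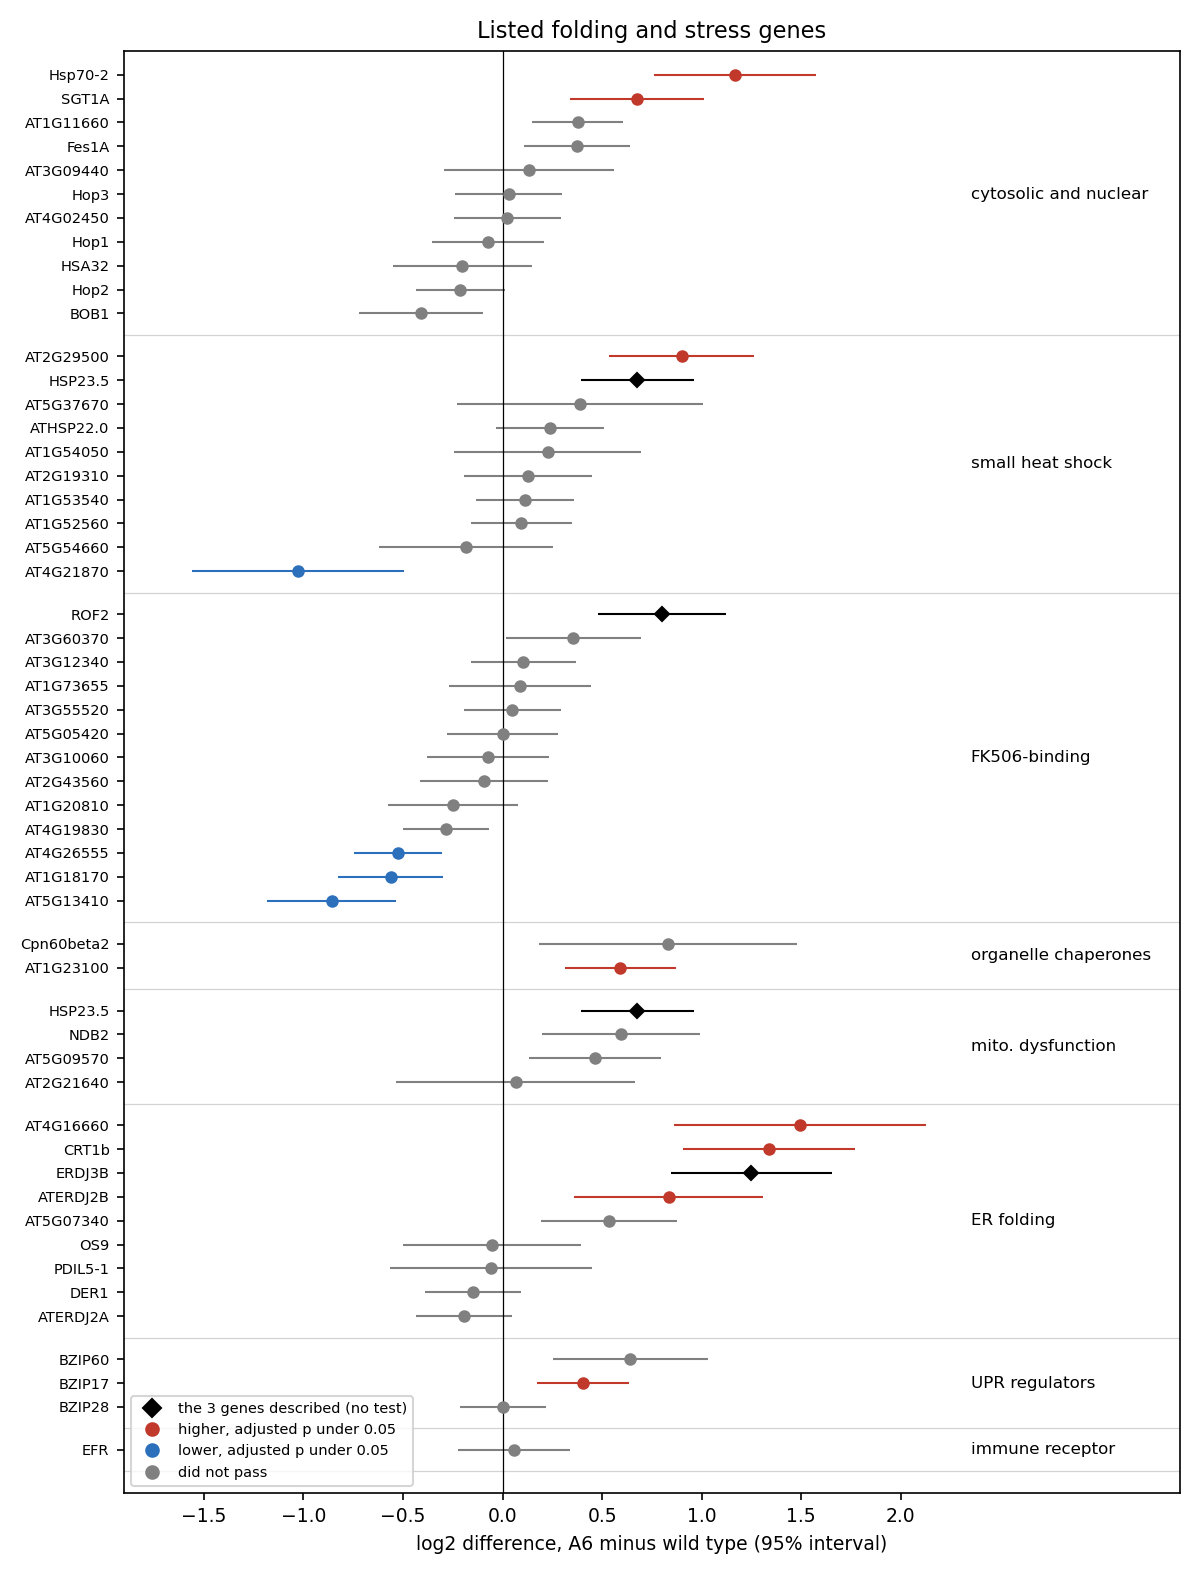
A6 minus wild-type log2 differences with 95% intervals for the measured genes of each list, named by symbol or locus code; black diamonds are ROF2, HSP23.5 (in both of its lists) and ERDJ3B, red genes rose, blue genes fell and grey genes did not pass. In the ER folding list CRT1b, AT4G16660 and ATERDJ2B rose beside ERDJ3B. In the FK506-binding list 3 genes fell, and of the measured loci only ROF2, which was chosen with its rise known, lies above 0.5.

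In the ER folding and quality control list, 3 of the 8 genes measured beside ERDJ3B rose, 0 fell and 5 did not pass with limma, with a median difference of 0.24, and 4 were higher and 0 lower with an unadjusted p under 0.05. CRT1b, a calreticulin that binds glycoproteins as they fold, had values of 1.05, 1.08 and 0.39 in A6 and of -0.51, -0.39 and -0.61 in wild type. A6 replicate 3 was the lowest A6 array, as for ERDJ3B and for every other listed gene that rose except AT1G23100. CRT1b rose 2.53-fold (log2 difference 1.34, SE 0.19, limma adjusted p = 0.00532). Its limma adjusted p was at most 0.0315 when any 1 array was left out, and 0.115 in the fit with the 3' minus 5' value, where its difference was 1.39.

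AT4G16660, which RefSeq gives no symbol, had values of 0.91, 1.26 and 0.28 in A6 and of -1.06, -0.28 and -0.70 in wild type. Its arrays spread widely within each line. It rose by 1.49 log2 units (SE 0.27, limma adjusted p = 0.0147). Its adjusted p was 0.0699 without A6 replicate 1 and 0.0509 without A6 replicate 2, and in the fit with the 3' minus 5' value its difference was 0.92 (limma adjusted p = 0.367).

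ATERDJ2B is a J-domain protein of the ER membrane that belongs to the protein import machinery. It had values of 0.56, 0.35 and 0.14 in A6 and of -0.93, -0.14 and -0.38 in wild type, and rose by 0.83 log2 units (SE 0.21, limma adjusted p = 0.0422). That call was lost when any of the A6 arrays, or replicate 3 of wild type, was left out (adjusted p 0.063 to 0.156). Fitted with the 3' minus 5' value its difference shrank to 0.11 (SE 0.29, limma adjusted p = 0.873). Its close relative ATERDJ2A had a difference of -0.19 (SE 0.10, limma adjusted p = 0.314).

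The locus AT5G07340 had a difference of 0.53 (SE 0.15, limma adjusted p = 0.0625) and did not pass. PDIL5-1, a protein disulfide isomerase-like protein, and OS9 and DER1, which act in the removal of misfolded ER proteins, had differences of -0.057, -0.051 and -0.15. BIP1, BIP2, BIP3, SDF2, ERDJ3A and P58IPK are not analysed here, so the direct partners of ERDJ3B carry no values. The receptor EFR, whose folding depends on ERDJ3B, had a difference of 0.057 (SE 0.12, limma adjusted p = 0.847).

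Of 3 measured regulators of the unfolded protein response, which raises ER folding capacity, 1 rose. This was BZIP17, a membrane-bound transcription factor, with 0.24, 0.34 and 0.12 in A6 and -0.18, -0.21 and -0.12 in wild type (log2 difference 0.403, SE 0.10, limma adjusted p = 0.0431). It kept its call without wild-type replicate 1 and lost it without each of the other 5 arrays (adjusted p 0.0552 to 0.151). BZIP60, the factor whose transcript IRE1 splices under ER stress, had values of 0.53, 0.26 and 0.11 in A6 and of -0.66, -0.26 and -0.11 in wild type. The lines did not overlap, but its difference of 0.64 (SE 0.17) did not pass (limma adjusted p = 0.0529), and these arrays do not tell its splice forms apart. BZIP28 had a difference of 0.00046 (SE 0.094).

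In the cytosolic and nuclear chaperone list, 2 of 11 measured genes rose, 0 fell and 9 did not pass with limma, with a median of 0.031, and 4 were higher and 1 lower with an unadjusted p under 0.05. Hsp70-2 (AT5G02490), a cytosolic Hsp70, had values of 0.57, 1.12 and 0.41 in A6 and of -0.48, -0.41 and -0.51 in wild type. The wild-type arrays lay close together and A6 replicate 2 stood highest. It rose 2.24-fold (log2 difference 1.17, SE 0.18, limma adjusted p = 0.00717) and kept its call without any 1 array, at an adjusted p of at most 0.0307, but had an adjusted p of 0.134 in the fit with the 3' minus 5' value, where its difference was 1.21. Whether RNA of the closely related Hsp70 genes also binds this probe set was not tested.

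SGT1A, a co-chaperone that works with HSP90 in immune receptor assembly, had values of 0.35, 0.39 and 0.13 in A6 and of -0.63, -0.13 and -0.39 in wild type. It rose by 0.68 log2 units (SE 0.15, limma adjusted p = 0.0264), and its adjusted p was between 0.0781 and 0.109 when replicate 1 or 2 of A6 or replicate 3 of wild type was left out. Its difference in the fit with the 3' minus 5' value was 0.25 (limma adjusted p = 0.615). Hop1, Hop2 and Hop3, which link Hsp70 and HSP90, had differences of -0.074, -0.21 and 0.031. Fes1A, an Hsp70 co-chaperone of heat tolerance, had 0.37 (limma adjusted p = 0.0862) and HSA32, needed for lasting heat tolerance, had -0.20. The 21 listed heat shock transcription factors, HSFA2 among them, and the HSP90 genes are not analysed here.

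Among the small heat shock proteins 1 of 9 genes measured beside HSP23.5 rose, 1 fell and 7 did not pass, with a median of 0.13. AT2G29500 had values of 0.37, 0.65 and 0.24 in A6 and of -0.73, -0.24 and -0.46 in wild type, and rose by 0.90 log2 units (SE 0.16, limma adjusted p = 0.0123; 0.0554 without A6 replicate 1). Its difference in the fit with the 3' minus 5' value was 0.49 (limma adjusted p = 0.376). AT4G21870 went the other way, with -0.32, -0.92 and -0.17 in A6 and 0.17, 0.72 and 0.78 in wild type (log2 difference -1.03, SE 0.23, limma adjusted p = 0.0301). It lost its call without A6 replicate 1 or 2 or wild-type replicate 2 or 3 (adjusted p 0.0792 to 0.108), and in the fit with the 3' minus 5' value its difference was -1.71 (limma adjusted p = 0.0681). ATHSP22.0 had a difference of 0.24 (SE 0.12, limma adjusted p = 0.266).

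The mitochondrial setting of HSP23.5 was thinly covered. Of its companions in the mitochondrial dysfunction response, a set of nuclear genes raised when respiration is disturbed, 3 of 8 were measured and 0 passed with limma, while 2 had an unadjusted p under 0.05. NDB2, an external NADH dehydrogenase, had values of 0.67, 0.59 and 0.040 in A6 and of -0.24, -0.20 and -0.040 in wild type (log2 difference 0.59, SE 0.17, limma adjusted p = 0.0701). The loci AT5G09570 and AT2G21640 had differences of 0.46 (SE 0.14) and 0.065 (SE 0.26). Of 21 listed chaperones and proteases of mitochondria and chloroplasts 2 were measured: AT1G23100 rose by 0.59 (SE 0.12, limma adjusted p = 0.0217), a call lost without any A6 array or wild-type replicate 2 (0.0528 to 0.0833), and the chloroplast chaperonin subunit Cpn60beta2 had 0.83 (SE 0.28, limma adjusted p = 0.111).

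ROF2 belongs to the FK506-binding proteins, which speed the turning of proline bonds in folding proteins. Of 12 other measured FK506-binding loci 0 rose, 3 fell and 9 did not pass with limma, with a median of -0.083 and a highest difference of 0.35. At an unadjusted p under 0.05, 1 was higher and 4 were lower. Whether ROF2 differs from these loci was not tested, because it was chosen with its rise known. AT5G13410 had values of -0.33, -0.40 and -0.25 in A6 and of 0.76, 0.59 and 0.25 in wild type, and fell by 0.86 log2 units (SE 0.14, limma adjusted p = 0.00969; 0.0521 without A6 replicate 1). AT1G18170 fell by 0.56 (SE 0.11, limma adjusted p = 0.0215) and AT4G26555 by 0.53 (SE 0.096, limma adjusted p = 0.0143). AT1G18170 lost its call without A6 replicate 1 or 2 or wild-type replicate 2 or 3 (0.0543 to 0.0914), and AT4G26555 without A6 replicate 1 or 2 or wild-type replicate 3 (0.0506 to 0.0603). In the fit with the 3' minus 5' value the differences of AT5G13410, AT1G18170 and AT4G26555 were -0.64, -0.42 and -0.39. Their limma adjusted p-values there were 0.258, 0.364 and 0.310. ROF1, the closest partner of ROF2, is not analysed here.

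Genes next to the 3 on the chromosome gave little to compare. Of the 4 nearest protein-coding genes of each, 1 near ROF2 (AT5G48550), 1 near HSP23.5 (AT5G51420) and 2 near ERDJ3B (AT3G62580 and AT3G62590) were measured. Their differences were -0.21, -0.066, 0.052 and -0.13, with limma adjusted p-values of 0.389, 0.758, 0.897 and 0.721.

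Likeness of pattern was measured by Pearson's r over the 6 arrays, which mostly reflects the gap between the lines and is given as a ranking only. For ROF2 the closest of all other genes was HSP23.5 (r = 0.994), followed by KELP, AT3G45260, AT1G70740 and AT5G36930 (0.993 to 0.987). For HSP23.5 the closest were AT5G36930 (0.996), ROF2, KELP, AT3G52740 and AT1G70740 (0.988), so 3 loci were on the lists of both. For ERDJ3B they were SAL2 (0.998), a relative of the inositol polyphosphate phosphatase SAL1, AT2G20142, AT1G22660, AT3G48650 and AT4G36430 (0.996), none of which was among the 5 closest to ROF2 or HSP23.5. An r above 0.9 was reached by 312 genes for ROF2, 365 for HSP23.5 and 478 for ERDJ3B.

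The labelled tissue could be checked only through differences, because centred values hold no level. Of 5 listed leaf markers 1 was measured, RCA, the activase of Rubisco, with a difference of 0.17 (limma adjusted p = 0.382). Of 20 listed markers of root, meristem and flower, seed, phloem and xylem, 7 were measured, 0 passed with limma and 0 had an unadjusted p under 0.05. Their differences lay between -0.23 and -0.065, except for the seed storage gene PAP85 at -1.58 (SE 1.18). PAP85 stood at 4.81 on wild-type replicate 1 and between -0.42 and 0.18 on the other 5 arrays. The meristem gene CLV3 (0.803) and the root-list genes LBD29 (0.52), EXPA7 (0.14) and EXPA18 (0.13) were also highest on that array. The remaining markers did not follow. PYK10 of the root list was highest on wild-type replicate 3 (0.54) and stood at -0.021 on replicate 1, where SWEET11 of the phloem and xylem list was lowest (-0.062).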

How the data were processed

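The deposited values are log2 values made by the authors with RMA (background correction, quantile normalization, probe summary), per the submitters' processing notes; the version is not given in the sources used here. They were also centred, with probe-set medians within 5.0e-07 of 0, a step the labels do not describe. Base 2 is assumed. Label protocols name the QIAGEN RNeasy kit and the Affymetrix 3' IVT Express kit. Of 22810 probe sets on the ATH1 array, 64 controls were left out, 13513 had 1 gene, 503 several and 8730 none listed. Names were updated through RefSeq (TAIR10.1). A gene with several probe sets was shown by the plainest suffix, then the lowest number, since centring removes brightness and any filter on dim probes. Lines were compared with lmFit and eBayes of limma 3.58.1 (R 4.3.3), two-sided, over 22746 probe sets. The procedure was run on simulated data with independent noise of equal spread on all arrays, which the real arrays need not have. It recovered 94% of planted changes of 1 log2 unit and 99% of those of 2, and called 16 unchanged probe sets. Smaller changes were not simulated. Genes named are the 3 described, all called listed genes, their partners and relatives, and the 5 most alike; a few other listed genes were added as values after these were seen. The 3 genes and the lists were chosen with earlier results of these data known. Of the 4 extra genes found by symbol family, 0 passed with limma, and 0 had an unadjusted p under 0.05. No 2 arrays held identical values. Precision is limited by the number of arrays, and no signal over background can be given. No sequences were used here.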

Additional observations from a re-analysis of the deposited data

How the results depend on the processing

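ROF2, HSP23.5 and ERDJ3B had higher values in A6 under all 13 other ways of fitting. Much of this was fixed beforehand. The lines did not overlap on these genes, so leaving out or weighting arrays cannot reverse a sign. The replicate block and the equal-variance model return the same differences by construction. The genes were also chosen with this contrast known, so the shared direction is no support for the rise. Leaving out 1 array gave differences of 0.72 to 0.91 for ROF2, 0.61 to 0.79 for HSP23.5 and 1.14 to 1.45 for ERDJ3B. Shifts beyond the replicate spread came with the 3' minus 5' covariate (0.43, 0.37 and 1.52) and, for ERDJ3B, without the 2 arrays with the highest hybridization spike-ins, A6 replicate 3 and wild-type replicate 1 (1.51). The counts moved more than the values. The 2222 called probe sets (9.77%) became 766 to 3484 without 1 array, 4691 with array weights, 290 with the covariate, 3465 without the 2 spike-in arrays and 229 with an ordinary equal-variance model, and the 12 called listed genes became 2 to 16, 20, 0, 19 and 0. The cause was not tested; where arrays were left out, fewer entered the fit. Where 0 listed genes were called, 13 (covariate) and 21 (equal-variance model) had an unadjusted p under 0.05. Same-numbered arrays had correlations of deviations of -0.13, 0.18 and -0.16. The labels do not say that equal numbers pair the samples, and these correlations, from 3 arrays per line, cannot settle it. A replicate block gave 1526 and 8 calls. Each block held an array of each line, so it could not change the 3 differences of 0.80, 0.68 and 1.25. Only their SEs could move. With the block they were 0.16 for ROF2, 0.14 for HSP23.5 and 0.13 for ERDJ3B, against 0.14, 0.12 and 0.17 without it. No array's signal over background can be read from centred values.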
